A study of Mus musculus with 15 samples.

Results

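Phagocytes share a core of genes for engulfing and digesting particles. Of the genes that such cells express, 10 (Cd68, Ctss, Lyz2, Itgam, Itgb2, Fcer1g, Tyrobp, Fcgr4, Plac8 and Ms4a7) were followed here through mouse cerebral vessels. They were chosen by name, with earlier results of these data known, as genes common to activated and blood-derived myeloid cells. They are 10 of the 22526 gene symbols in the deposited expression table. The series holds 15 libraries from wild type C57BL/6 mice aged 8 months, in 3 groups of 5. In GFP-Veh, the mice had received a stereotactic brain injection of AAV-GFP, an adeno-associated virus encoding green fluorescent protein, and were given saline. In GFP-AL, mice with the same virus were given AngII (the pressor peptide angiotensin II) plus L-NAME, which blocks nitric oxide synthases. In LH3-AL, the mice had received AAV-LH3, which encodes lysyl hydroxylase 3, a collagen-modifying enzyme, and were given AngII plus L-NAME. No group combined AAV-LH3 with saline, so the virus can be compared only under the drugs. The sources used here name neither the promoter that drives a virus nor whether each library came from 1 mouse. The p-values therefore measure the spread between libraries, which may be technical.

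Myeloid cells of the brain include the resident microglia, macrophages at the brain's borders and around vessels, and monocytes and neutrophils that arrive with the blood. They recognise antibody-coated or complement-coated particles through Fc receptors and CD18 integrins, pass the signal on through adaptor chains that carry an ITAM (a tyrosine motif phosphorylated by Src kinases and bound by Syk), and break the cargo down in lysosomes. All of the 10 genes but Plac8 and Ms4a7 encode parts of these steps. Most of the 10 are shared by several of these cell types. A level in whole vessels therefore does not say which cell made the RNA. In bulk samples such as these, fewer cells of a type and less RNA per cell cannot be told apart.

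The vessels had been isolated from perfused brains by homogenisation and repeated low-speed spins, and carried high levels of endothelial markers (18 genes, summed level 3260 to 6370 FPKM per library). FPKM is the level of a gene scaled to its length and to the library's depth. Estimated depths were 13.6 to 16.0 M fragments in 4 GFP-Veh libraries and 18.0 to 31.6 M in all others. Plod3, which encodes LH3, was at 16.8 ± 0.621 FPKM for GFP-Veh, 13.9 ± 1.09 for GFP-AL and 21.6 ± 1.46 for LH3-AL (SD, n = 5). GFP-AL replicates 2 and 3 and GFP-Veh replicate 2 stand apart from the other libraries, and each count of members was repeated without them.

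The start regions of the genes are shown first because sequence is a property that the choice of genes did not use. RefSeq windows of 250 bases before to 50 bases after a transcription start (build GRCm38.p6) were found for 8 of the 10 genes, in 10 windows, and were searched on both strands for letters bound by factors that act in myeloid cells. GAGGAAGT, a site of the myeloid factor PU.1, and GAAA followed by any 2 bases and GAAA, a site of interferon regulatory factors (IRF), each occurred in Ctss and Fcgr4, against 3.20% and 3.44% of all 32851 windows. TGANTCA (AP-1) occurred in Cd68 and in the second start of Ms4a7 (7.81% of all windows), and TTGCNNAA (C/EBP) in Cd68 and in the second start of Plac8 (10.8%). GGG, any 2 bases and TTTCC (NF-kappaB; 1.63%) and TTCNNNGAA (STAT; 8.30%) occurred in none of the 10 windows, and TATAAA in Ctss (13.6%). The 250 bases before the start are printed for the genes with a PU.1, IRF or AP-1 match at their first start, and for Ms4a7 as the gene with its lowest mean in GFP-AL. They run 5′ to 3′ on the gene's strand, with PU.1, IRF, AP-1 and C/EBP matches in capitals; the PU.1 match of Ctss spans the start itself, from base -2 to base 5 where the first transcribed base is 0, and so lies only partly in the stretch shown. A match is a description of these letters, not evidence that a factor binds there.
Ctss, chr3:95526536-95526785, plus strand: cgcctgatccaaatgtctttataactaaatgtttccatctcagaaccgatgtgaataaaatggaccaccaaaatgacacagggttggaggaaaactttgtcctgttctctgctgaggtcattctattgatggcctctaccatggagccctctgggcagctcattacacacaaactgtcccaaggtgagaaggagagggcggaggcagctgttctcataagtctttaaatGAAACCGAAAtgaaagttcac
Fcgr4, chr1:171018676-171018925, plus strand: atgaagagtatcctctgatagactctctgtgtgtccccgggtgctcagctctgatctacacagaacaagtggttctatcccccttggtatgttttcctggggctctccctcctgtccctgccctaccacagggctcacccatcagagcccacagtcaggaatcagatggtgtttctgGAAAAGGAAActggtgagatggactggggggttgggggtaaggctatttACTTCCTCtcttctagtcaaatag
Cd68, chr11:69666171-69666420, minus strand: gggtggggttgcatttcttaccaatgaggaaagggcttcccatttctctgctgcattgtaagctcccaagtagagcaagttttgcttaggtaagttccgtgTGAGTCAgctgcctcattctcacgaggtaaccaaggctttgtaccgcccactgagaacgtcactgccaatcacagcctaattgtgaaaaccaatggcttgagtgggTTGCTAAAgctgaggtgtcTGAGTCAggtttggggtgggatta
Ms4a7, chr19:11336147-11336396, minus strand: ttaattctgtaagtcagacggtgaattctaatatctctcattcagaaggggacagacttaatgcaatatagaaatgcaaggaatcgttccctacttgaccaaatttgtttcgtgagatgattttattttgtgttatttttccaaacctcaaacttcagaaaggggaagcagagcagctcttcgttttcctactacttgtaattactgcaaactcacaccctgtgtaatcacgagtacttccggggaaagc
In Fcgr4 the IRF match lay from base -73 to base -64 and the PU.1 match from base -24 to base -17. Cd68 carried the AP-1 letters TGAGTCA at 2 places, starting at base -149 and at base -24.

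Of the 10 genes, 8 rose with AngII plus L-NAME and fell in LH3-AL, where their levels overlapped those of the saline group. Plac8 had the same directions without passing the test, and Ms4a7, lowest in GFP-AL, was below the minimum level for testing. Testing was by limma on log2(FPKM + 1) with Benjamini-Hochberg adjustment, over the 13082 genes (9 of the 10) whose mean across all libraries reached 1 FPKM, and a gene was called at an adjusted p below 0.05. In GFP-AL against GFP-Veh, 8 of the 9 tested members were called higher and none lower, where 10.8% of all tested genes were called higher and 17.7% lower. All GFP-AL libraries of these 8 lay above all GFP-Veh libraries, which held for 6.59% of tested genes. In LH3-AL against GFP-AL, 8 of 9 were called lower and none higher, beside 11.4% and 17.0% of tested genes, and all 8 were apart, beside 8.45% apart and lower. In LH3-AL against GFP-Veh none of the 9 was called, beside 0.520% of tested genes called in either direction. None was apart there, beside 2.06% apart and higher and 2.61% apart and lower, and none had an unadjusted limma p below 0.05. The first 2 comparisons share the GFP-AL libraries, so the fall in one is not independent of the rise in the other. The counts of 8 were the same without the 3 libraries that stand apart, with log2 depth as a covariate, and with any single library left out. Differences below are on the log2(FPKM + 1) scale with their standard error, so those of low genes are understated.

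**Figure D1:**
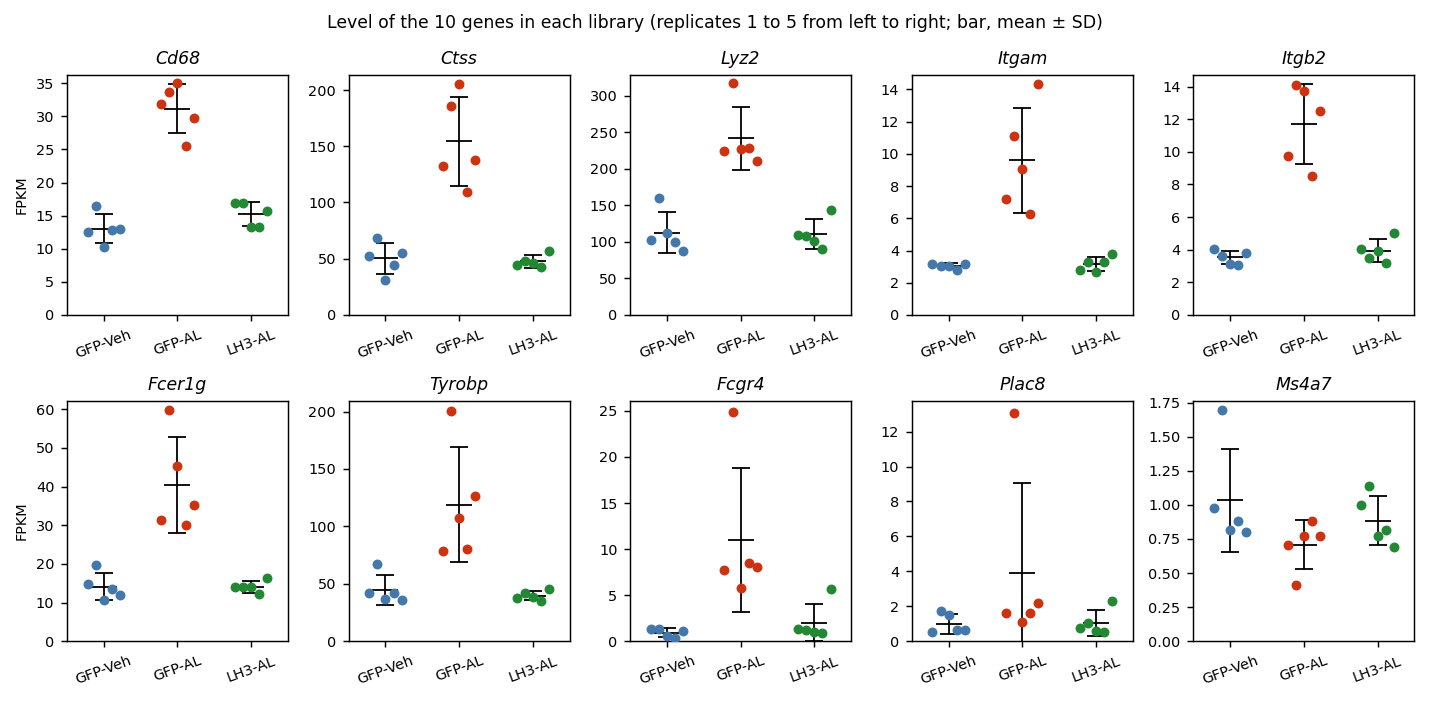
FPKM of each gene (vertical axes, linear, from 0) in the 5 libraries of each group, with the group mean ± SD as a bar. For Cd68, Ctss, Lyz2, Itgam, Itgb2, Fcer1g, Tyrobp and Fcgr4 every GFP-AL point lies above every point of both other groups; for Plac8 the mean rests on GFP-AL replicate 2 (13.1 FPKM), and Ms4a7 is lowest in GFP-AL.

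The 3 lysosomal genes all rose in GFP-AL and fell in LH3-AL. Cd68, a glycoprotein of late endosomes and lysosomes (ENSMUSG00000018774, GRCm38 chr11:69664213-69666153), was measured at 12.6, 16.5, 10.3, 12.8 and 12.97 FPKM in GFP-Veh replicates 1 to 5. In GFP-AL it was at 31.8, 33.7, 35.1, 25.5 and 29.7 FPKM, and in LH3-AL at 16.9, 16.97, 13.3, 13.2 and 15.8 FPKM. All GFP-AL libraries lay above all others, while GFP-Veh and LH3-AL overlapped. The difference was 1.20 ± 0.12 for GFP-AL against GFP-Veh (limma adjusted p = 1.54e-05) and -0.99 ± 0.12 for LH3-AL against GFP-AL (adjusted p = 8.68e-05).

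Ctss encodes cathepsin S, a lysosomal cysteine protease that also trims the invariant chain of MHC class II (ENSMUSG00000038642, chr3:95526786-95556403). Its levels were 52.6, 68.7, 31.3, 44.6 and 54.8 FPKM across GFP-Veh, 133, 186, 205, 109.7 and 138 across GFP-AL, and 44.3, 47.7, 45.8, 42.9 and 57.3 across LH3-AL. The lowest GFP-AL library was thus above the highest of either other group. Ctss differed by 1.60 ± 0.19 between GFP-AL and GFP-Veh (limma adjusted p = 4.73e-05) and by -1.65 ± 0.19 between LH3-AL and GFP-AL (adjusted p = 7.53e-05).

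Lyz2, the lysozyme of macrophages, monocytes and neutrophils, which cleaves bacterial cell walls, was the most abundant of the 10 genes in each group (ENSMUSG00000069516, chr10:117277331-117282321). It stood at 103, 161, 112, 99.2 and 87.5 FPKM across GFP-Veh, 225, 318, 227, 228 and 211 across GFP-AL, and 109.5, 109, 102, 89.7 and 144 across LH3-AL. GFP-AL replicate 2 was far above the rest of its group, yet the other 4 GFP-AL libraries also lay above every library of the other groups. The differences were 1.11 ± 0.16 (limma adjusted p = 2.23e-04) and -1.12 ± 0.16 (adjusted p = 3.29e-04). Its close paralog Lyz1 did not exceed 0.599 FPKM in any library. Of the summed level of the 10 genes, Lyz2 made up 46.0% ± 4.55 for GFP-Veh, 39.3% ± 4.63 for GFP-AL and 46.3% ± 1.63 for LH3-AL (SD, n = 5).

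The CD18 integrin subunits rose and fell together. Itgb2 encodes CD18, the shared beta chain of the leukocyte integrins, which bind complement fragments and adhesion molecules on endothelium (ENSMUSG00000000290, chr10:77530252-77565708). It was measured at 4.04, 3.59, 3.11, 3.07 and 3.81 FPKM across GFP-Veh, 9.75, 14.1, 13.7, 8.53 and 12.5 across GFP-AL, and 4.05, 3.52, 3.93, 3.17 and 5.03 across LH3-AL. GFP-AL did not overlap either other group. The differences of 1.47 ± 0.14 (limma adjusted p = 1.01e-05) and -1.35 ± 0.14 (adjusted p = 2.37e-05) had the smallest adjusted p-values of the 10 genes in their comparisons.

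Itgam encodes CD11b, the alpha chain that pairs with CD18 to form complement receptor Mac-1 (ENSMUSG00000030786, chr7:128062640-128118491). The deposited table has 2 rows of this name, and the second (ENSMUSG00000108596) is a locus that GENCODE M21 names Gm49368, on the same strand with 3450 exon bases in common, so reads could be split between them. Summed over both rows, Itgam was at 3.17, 3.06, 3.05, 2.78 and 3.16 FPKM across GFP-Veh, 7.18, 11.1, 9.06, 6.27 and 14.3 across GFP-AL, and 2.81, 3.28, 2.68, 3.30 and 3.81 across LH3-AL. The sum did not overlap between GFP-AL and either other group, and differed by 1.34 ± 0.16 (limma adjusted p = 4.43e-05) and -1.30 ± 0.16 (adjusted p = 9.24e-05).

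The 2 rows divided the signal unevenly from library to library. The first row was lowest of its group at 1.66 FPKM in GFP-Veh replicate 2 and 1.42 FPKM in LH3-AL replicate 1, and in those libraries the second row was at 1.40 and 1.39 FPKM. In GFP-AL replicate 5 the second row reached 4.88 FPKM, while in GFP-AL replicate 3 it was at 0 after values below 0 were set to 0. The sum varied less than the first row alone within GFP-Veh, with an SD of 0.158 against 0.631 FPKM (n = 5). The same held within LH3-AL, at 0.450 against 0.863 FPKM. Within GFP-AL the sum varied more, at 3.24 against 1.997 FPKM. With the first row alone the differences were 1.34 and -1.35 (limma adjusted p = 1.46e-04 and 2.27e-04, a choice made after seeing the data).

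**Figure D2:**
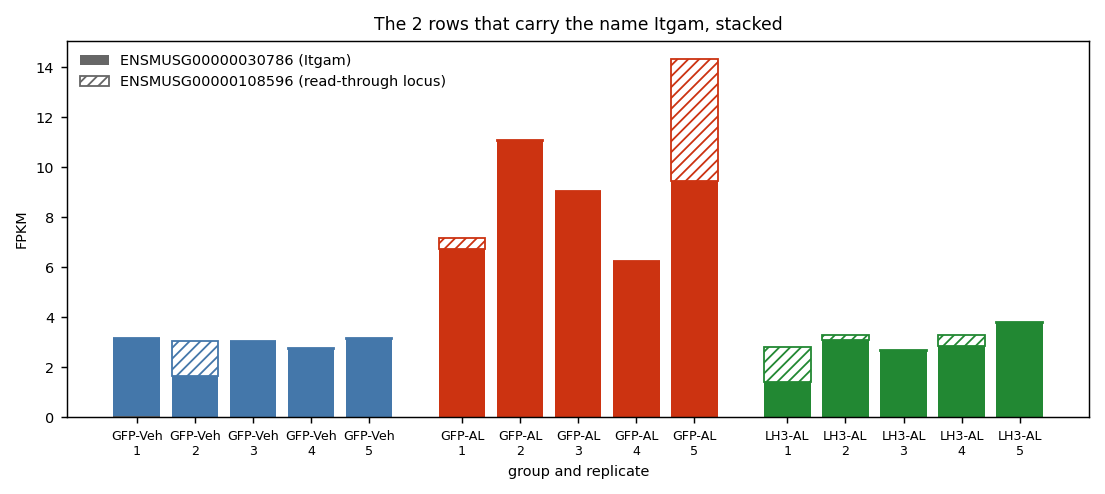
FPKM of the 2 rows named Itgam, stacked, for each library (horizontal axis, group and replicate; vertical axis from 0). The hatched second row is visible mainly in GFP-Veh replicate 2, in replicates 1 and 5 of GFP-AL and in replicates 1, 2 and 4 of LH3-AL, and the GFP-AL stacks reach 6.27 to 14.3 FPKM against 2.78 to 3.17 in GFP-Veh.

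The ratio of Itgam to Itgb2 was 0.870 ± 0.0749 for GFP-Veh, 0.813 ± 0.193 for GFP-AL and 0.821 ± 0.159 for LH3-AL (SD, n = 5). No difference between 2 groups passed the test (two-sided exact permutation p = 0.468, 0.929 and 0.452; Benjamini-Hochberg over the 9 ratio tests made, 0.602, 0.929 and 0.602). The other alpha chains of CD18 were low: Itgal averaged 0.581, 1.23 and 0.631 FPKM across GFP-Veh, GFP-AL and LH3-AL, Itgax 0.435, 1.04 and 0.395, and Itgad at most 0.277 FPKM in any library. All these lay below the minimum for testing.

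The ITAM adaptors and the Fc receptor followed the same course. Fcer1g encodes the Fc receptor gamma chain, the ITAM-bearing partner that activating Fc gamma receptors need to reach the surface and signal (ENSMUSG00000058715, chr1:171229572-171234365). Its levels were 14.7, 19.7, 10.6, 13.6 and 11.97 FPKM across GFP-Veh, 31.4, 59.7, 45.4, 30.1 and 35.4 across GFP-AL, and 13.9, 13.9, 14.1, 12.1 and 16.4 across LH3-AL. GFP-AL lay wholly above both other groups, and LH3-AL had the smallest spread (SD 1.51 FPKM, n = 5). The differences were 1.44 ± 0.18 (limma adjusted p = 6.18e-05) and -1.41 ± 0.18 (adjusted p = 1.11e-04).

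Tyrobp encodes DAP12, the ITAM adaptor of TREM2 and related receptors (ENSMUSG00000030579, chr7:30413760-30417585). It was at 41.99, 67.1, 36.9, 41.6 and 36.1 FPKM across GFP-Veh, 78.8, 201, 107, 80.1 and 127 across GFP-AL, and 38.05, 41.8, 38.3, 35.4 and 45.1 across LH3-AL. GFP-Veh replicate 2 and GFP-AL replicate 2 were the highest of their groups, and the groups still did not overlap. Tyrobp differed by 1.34 ± 0.22 (limma adjusted p = 5.67e-04) and -1.47 ± 0.22 (adjusted p = 4.12e-04).

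Fcgr4, an activating receptor for IgG found on monocytes, macrophages and neutrophils, changed most among the 10 genes on the log2 scale (ENSMUSG00000059089, chr1:171018920-171029761). It rose from 1.31, 1.33, 0.532, 0.341 and 1.16 FPKM in GFP-Veh to 7.76, 24.9, 5.83, 8.47 and 8.08 in GFP-AL, and was at 1.31, 1.24, 0.987, 0.940 and 5.65 in LH3-AL. The GFP-AL libraries lay above all others, but LH3-AL replicate 5 came close to the lowest of them. The differences were 2.49 ± 0.36 (limma adjusted p = 2.03e-04) and -1.99 ± 0.36 (adjusted p = 0.00138). With a pseudocount of 0.1 in place of 1 they were 3.36 and -2.54, and without GFP-AL replicate 2 they were 2.17 and -1.67.

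Per unit of its partner chain Fcer1g, Fcgr4 was at 0.0657 ± 0.0292 for GFP-Veh, 0.260 ± 0.104 for GFP-AL and 0.135 ± 0.118 for LH3-AL (SD, n = 5). The ratio was higher in every GFP-AL library than in any GFP-Veh library (exact permutation test, two-sided p = 0.00794, the lowest value possible with 5 against 5), but did not pass adjustment over the 9 ratio tests (0.0715). The ratio of Fcer1g to Tyrobp was 0.318 ± 0.0267, 0.355 ± 0.0636 and 0.355 ± 0.0153. It differed between LH3-AL and GFP-Veh before adjustment only (two-sided exact permutation p = 0.0317, adjusted 0.143).

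Plac8 and Ms4a7 did not follow the other 8. Plac8, a small cysteine-rich protein abundant in monocytes (ENSMUSG00000029322, chr5:100553725-100572245), was at 0.507, 1.71, 1.51, 0.644 and 0.628 FPKM across GFP-Veh, 1.63, 13.1, 1.10, 1.63 and 2.21 across GFP-AL, and 0.741, 1.07, 0.575, 0.533 and 2.30 across LH3-AL. Replicate 2 of GFP-AL stood alone, and the remaining GFP-AL libraries overlapped both other groups. The differences of 0.92 (95% confidence interval 0.04 to 1.79; limma adjusted p = 0.107) and -0.90 (-1.78 to -0.03; adjusted p = 0.110) did not pass. Without GFP-AL replicate 2 they were 0.43 and -0.42 (limma adjusted p = 0.192 and 0.205), and over the alternatives in which Plac8 was tested the adjusted p ran from 0.0683 to 0.241 and from 0.0605 to 0.205.

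Ms4a7, a membrane-spanning protein of macrophages (ENSMUSG00000024672, chr19:11321039-11336146), was at 0.977, 1.70, 0.813, 0.881 and 0.798 FPKM across GFP-Veh, 0.708, 0.409, 0.772, 0.878 and 0.773 across GFP-AL, and 1.00, 1.14, 0.770, 0.817 and 0.693 across LH3-AL. The groups overlapped, and the highest library was GFP-Veh replicate 2. In a limma fit without the minimum level (22526 genes) it differed by -0.24 (95% confidence interval -0.49 to 0.01; adjusted p = 0.171) in GFP-AL and by 0.14 (-0.11 to 0.39; adjusted p = 0.426) in LH3-AL against GFP-AL, opposite in sign to the other 9 genes.

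How close LH3-AL came to the saline group can be read from the intervals. For Lyz2 the difference was -0.01 (95% confidence interval -0.36 to 0.34), for Fcer1g 0.02 (-0.36 to 0.41), for Itgam 0.04 (-0.30 to 0.38) and for Ctss -0.04 (-0.46 to 0.37). Cd68 was the nearest to a difference, at 0.22 (-0.04 to 0.48), with LH3-AL at 15.2 ± 1.85 and GFP-Veh at 13.02 ± 2.22 FPKM (SD, n = 5). Itgb2 differed by 0.12 (-0.17 to 0.41) and Tyrobp by -0.14 (-0.61 to 0.34). The interval was widest for Plac8 (0.01, from -0.86 to 0.89) and wide for Fcgr4 (0.50, from -0.28 to 1.27), so the data leave room for a higher level of Fcgr4 in LH3-AL.

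The members also varied together between libraries of the same group. GFP-Veh replicate 2 was the highest of its group for 8 of the 10 genes, GFP-AL replicate 2 for 6 and LH3-AL replicate 5 for 8, while LH3-AL replicate 4 was the lowest of its group for 8 and GFP-AL replicate 4 for 5. The median difference of the 10 genes from the GFP-Veh mean was 1.08, 1.83, 1.35, 0.99 and 1.39 on the log2(FPKM + 1) scale in GFP-AL replicates 1 to 5, and -0.01, 0.05, -0.10, -0.16 and 0.26 in LH3-AL. After group means were removed, 41 of the 45 pairs of members correlated above 0 over the 15 libraries (median r 0.508, range -0.312 to 0.902, a description of libraries that share depth and preparation). Fcer1g and Tyrobp were the closest pair (0.902) and Plac8 and Ms4a7 the most opposed (-0.312). Over the 15 libraries, with group differences left in, r with the mean of the other members ran from 0.910 (Itgam) to 0.983 (Fcer1g) among the 8 called genes, and was 0.684 for Plac8 and -0.467 for Ms4a7.

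Outside the members, the genes with a profile most like the mean of the 10 standardised profiles over the 15 libraries were S100a4 (r = 0.982), Lgals3 (0.978), Spi1 (0.976), Surf4 (0.976), Ubtd1 (0.971), Hcls1 (0.969), Lgmn (0.967) and AB124611 (0.966). With group means removed these r were 0.776 (Lgmn) to 0.93 (S100a4). S100a4 averaged 3.85 ± 2.38 FPKM for GFP-Veh, 14.6 ± 6.87 for GFP-AL and 3.26 ± 0.652 for LH3-AL (SD, n = 5). Surf4 was the most modest of the 8 in size, at 48.1 ± 4.52, 70.9 ± 10.1 and 48.4 ± 3.42 FPKM.

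Among the other Fc receptor and ITAM signalling genes, 14 of 18 tested were higher in GFP-AL and none lower, and 16 were lower in LH3-AL than in GFP-AL, with medians of 0.87 and -0.89 beside -0.09 and 0.08 over all tested genes. Fcgr3, a low-affinity IgG receptor that also signals through Fcer1g, rose from 7.98 ± 2.29 to 28.3 ± 6.38 FPKM (SD, n = 5; difference 1.72, limma adjusted p = 1.69e-05) and was at 7.95 ± 1.05 in LH3-AL. Fcgr2b, the inhibitory IgG receptor, rose as well, from 2.61 ± 0.620 to 7.81 ± 1.52 FPKM (1.29, limma adjusted p = 2.73e-05), and fell to 3.10 ± 0.450. The high-affinity receptor Fcgr1 rose by 0.88 (limma adjusted p = 0.00400) and fell by 0.99 (adjusted p = 0.00211). Activating and inhibitory receptors therefore moved in the same direction. Cd300lf rose by 1.80 and the lectin receptor Clec4d fell by 2.23 in LH3-AL (limma adjusted p = 3.01e-05 and 1.65e-04). Hcst, the DAP10 adaptor, stayed below the minimum, at means of 0.533, 1.47 and 0.360 FPKM.

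**Figure D3:**
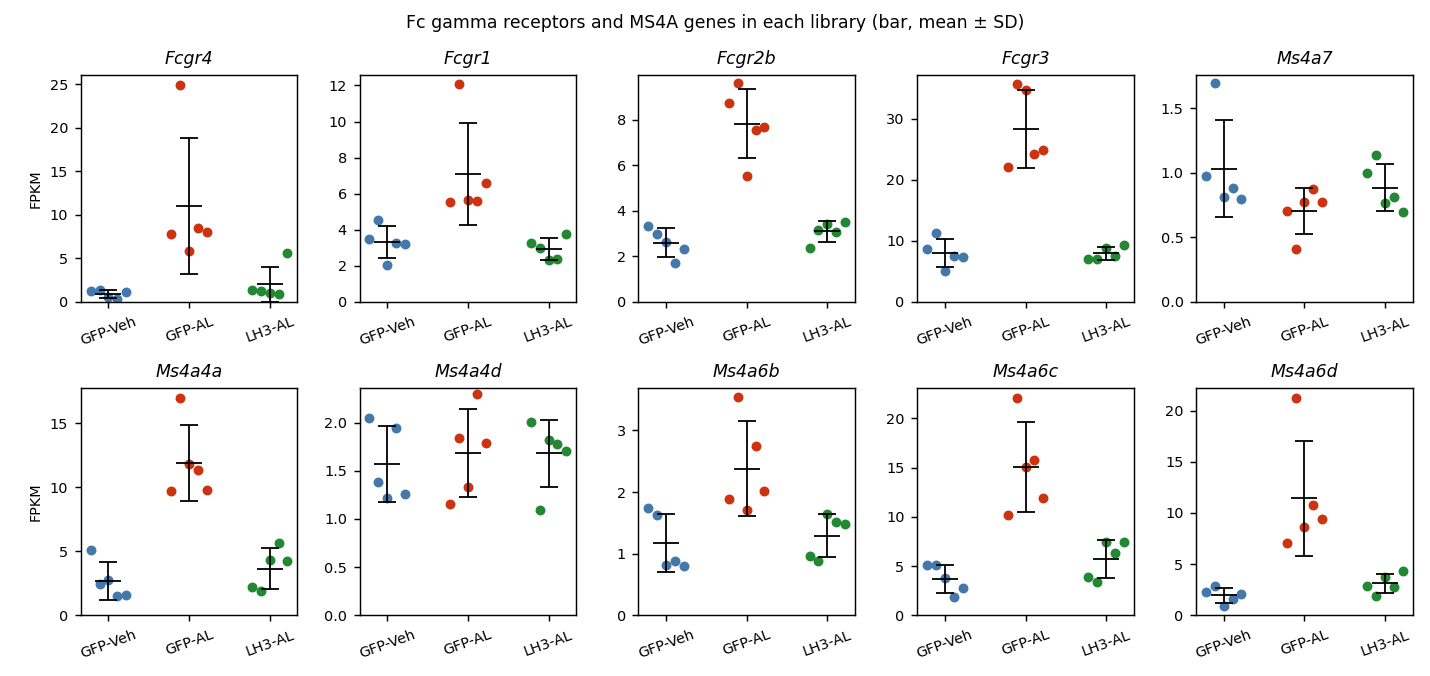
FPKM of the Fc gamma receptors and of Ms4a7 with its 5 tested relatives (vertical axes, linear, from 0) in each library, with the group mean ± SD as a bar. All 4 Fc gamma receptors average highest in GFP-AL, as do Ms4a4a, Ms4a6b, Ms4a6c and Ms4a6d, whereas Ms4a7 averages lowest there and Ms4a4d is level.

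Most tested relatives of Ms4a7 were highest in GFP-AL. Of 5 tested MS4A genes, 4 were higher in GFP-AL and 4 lower in LH3-AL. Ms4a6d went from 1.93 ± 0.763 to 11.4 ± 5.63 and 3.12 ± 0.914 FPKM (SD, n = 5; differences 2.03 and -1.53, limma adjusted p = 5.93e-05 and 7.35e-04). Ms4a4a changed by 1.87 and -1.52 (limma adjusted p = 1.46e-04 and 9.77e-04), Ms4a6c by 1.77 and -1.27, and Ms4a6b by 0.64 and -0.55. Ms4a4d differed by 0.06 and 0.01 (limma adjusted p = 0.787 and 0.981). The remaining 6 MS4A genes of the list (Ms4a1, Ms4a2, Ms4a3, Ms4a4b, Ms4a4c and Ms4a8a) lay below the minimum. Ms4a8a had group means of 0.0708, 2.03 and 0.122 FPKM.

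Beside the 3 lysosomal members, 28 other lysosome and phagosome genes were tested. Of these, 12 were higher and 1 lower in GFP-AL, and 13 lower and none higher in LH3-AL (medians 0.26 and -0.38). Laptm5, a lysosomal membrane protein of blood cells, differed by 1.07 and -0.88 (limma adjusted p = 1.96e-05 and 1.07e-04), and Ncf1, a subunit of the phagocyte NADPH oxidase, by 0.98 and -1.11 (adjusted p = 1.22e-04 and 8.62e-05). Lipa, the lysosomal acid lipase, and the protease Ctsb rose by 0.91 and 0.65. Hexa, a hexosaminidase subunit, was the single gene that fell in GFP-AL, by 0.60 (limma adjusted p = 0.00567).

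Among CD18 partners and activators 6 of 12 tested were higher and 1 lower in GFP-AL, and 8 lower and 1 higher in LH3-AL (medians 0.31 and -0.42). Fermt3, the kindlin that activates leukocyte integrins, differed by 1.25 and -1.17 (limma adjusted p = 1.96e-05 and 4.93e-05). Icam1, an endothelial ligand of CD18 integrins, was at 26.2 ± 4.49, 92.1 ± 28.1 and 38.6 ± 19.6 FPKM in GFP-Veh, GFP-AL and LH3-AL (SD, n = 5; 1.73 and -1.30, limma adjusted p = 4.53e-04 and 0.00406). Rasgrp2, an exchange factor for the integrin-activating GTPase Rap1, went the other way, by -0.92 and 0.67.

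Of 16 tested myeloid transcription factors and growth factor receptors, 12 were higher and 1 lower in GFP-AL, and 11 lower and none higher in LH3-AL (medians 0.97 and -1.29). Spi1, which encodes PU.1, was at 3.11 ± 0.776, 9.66 ± 4.22 and 2.74 ± 0.478 FPKM (SD, n = 5). Irf8, an interferon regulatory factor of myeloid cells, differed by 1.36 and -1.39 (limma adjusted p = 4.81e-05 and 7.53e-05). Cebpd, a C/EBP factor, was at 49.6 ± 10.8, 304.0 ± 129 and 54.5 ± 14.6 FPKM. Klf4 was the gene that fell in GFP-AL (-0.75, limma adjusted p = 0.0291), from 153 ± 17.2 to 94.1 ± 30.4 FPKM, and was at 70.7 ± 29.2 FPKM in LH3-AL (SD, n = 5). It remained lower in LH3-AL than in GFP-Veh (-1.18, limma adjusted p = 0.0387) and was the single gene of this list called there, while -0.43 against GFP-AL did not pass (adjusted p = 0.188). Which cells of the vessels made the RNA of the genes on this list was not tested.

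Markers of the cell types that express the members moved with them, though not all in step. Activated phagocyte markers were higher at 12 of 16 tested genes in GFP-AL and lower at 12 in LH3-AL. The largest differences were those of Ch25h (4.38 and -3.32) and the lipopolysaccharide co-receptor Cd14 (3.87 and -3.47). Of 18 tested resident microglia markers 7 were higher in GFP-AL and 8 lower in LH3-AL, but the genes that rose included the complement genes C1qa, C1qb and C1qc (1.38, 1.53 and 1.34), which macrophages also express. The microglial P2ry12, Cx3cr1, Tmem119 and Sall1 differed by 0.18, 0.15, 0.34 and -0.20 in GFP-AL, none called (limma adjusted p = 0.608, 0.493, 0.162 and 0.455). Of 9 blood monocyte markers 7 were higher and then 6 lower, with Chil3 at 5.97 ± 4.76, 69.3 ± 25.5 and 3.20 ± 1.49 FPKM (SD, n = 5). The defining Ly6c2 and Ccr2 were low, at means of 1.22 and 1.26 FPKM in GFP-AL and 0.323 to 0.701 FPKM in the other groups. Border-associated macrophage markers were mixed, with 7 of 14 higher and 3 lower in GFP-AL, Pf4 rising (1.43) and Cd209g falling (-1.44).

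Neutrophils also express Itgam, Itgb2, Fcer1g, Tyrobp, Lyz2 and Fcgr4, and their markers were uneven between libraries. The summed level of the 14 markers was 111 to 360 FPKM in GFP-Veh, 48.5 to 89.8 FPKM in LH3-AL, and 128, 984, 331, 156 and 538 FPKM in GFP-AL replicates 1 to 5. In GFP-AL replicates 1, 3 and 4 this sum was within the GFP-Veh range. The top of that range was GFP-Veh replicate 3 alone (360 FPKM), with GFP-Veh replicate 5 next at 184 FPKM. Of 11 tested markers 6 were called higher in GFP-AL and none lower, and 8 were lower in LH3-AL than in GFP-AL and none higher (medians 1.01 and -2.04). Il1r2 differed by 2.94 and -2.96, Retnlg by 2.18 and -3.20, Mmp8 by 1.69 and -2.17 and Cxcr2 by 1.74 and -2.04 (limma adjusted p at most 0.00519). Camp, Ltf and Ngp went the other way in GFP-AL against GFP-Veh, by -1.21, -0.94 and -0.62. None of these was called (limma adjusted p = 0.0767, 0.0606 and 0.297). S100a8 and S100a9 differed by 0.96 and 1.01 in that comparison and were not called (limma adjusted p = 0.149 and 0.118). Ly6g, Mpo and Elane, also on the list, averaged at most 0.908 FPKM in any group. GFP-AL replicate 2 was the highest library both for this sum and for Lyz2, Fcer1g, Tyrobp, Fcgr4, Itgb2 and Plac8. The part of these cells in the members' change was not tested.

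Red cell markers stayed high in LH3-AL. The 7 genes summed to 1470 to 3860 FPKM in GFP-Veh, 3870 to 19300 in GFP-AL and 4770 to 10100 in LH3-AL, with 7 of 7 called higher in GFP-AL, none called lower in LH3-AL against GFP-AL, and 3 still higher in LH3-AL than in GFP-Veh. By this sum every LH3-AL library thus lay above every GFP-Veh library, whereas the members, taken gene by gene, overlapped. Lymphocyte markers were low (2 of 15 tested) and dendritic cell markers were lower at 2 of 6 in GFP-AL, among them Cd209a (-1.77). Choroid plexus markers, which the preparation was meant to remove, were present at 1970 to 9220 FPKM summed and were lower at 9 of 10 in GFP-AL. What these cell types contribute to the members' values was not tested.

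**Figure D4:**
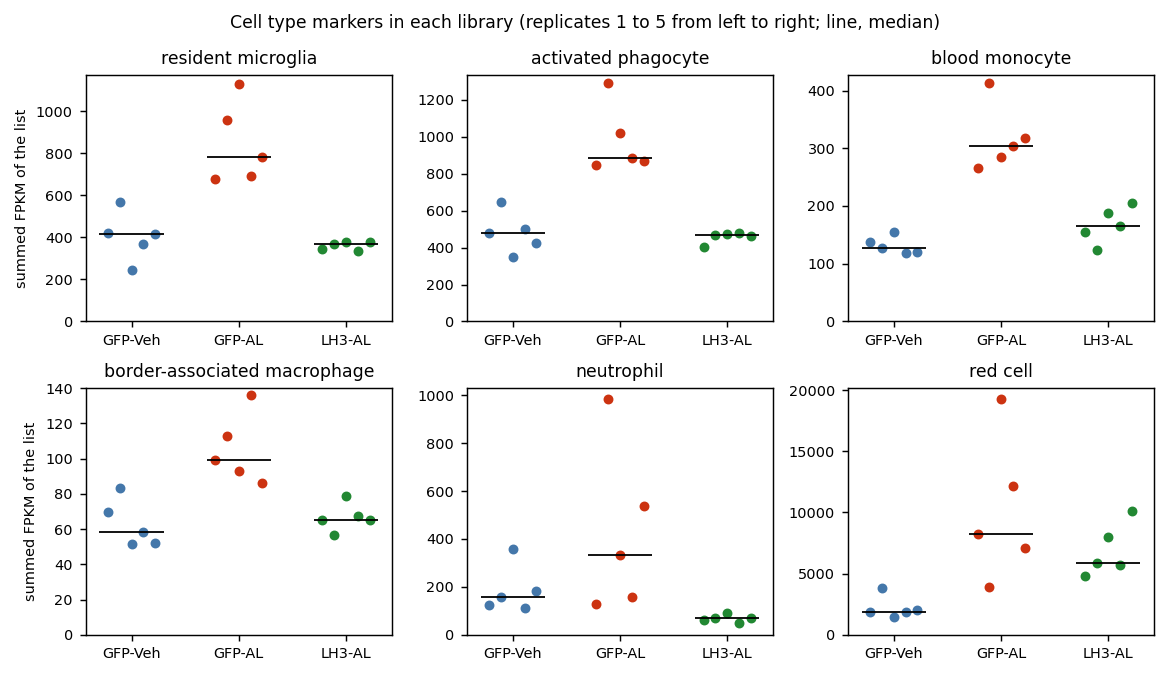
Summed FPKM of 6 marker lists (vertical axes, linear, from 0) in each library, replicates 1 to 5 from left to right, with the group median as a line. The sums of the 4 macrophage, microglia and monocyte lists are higher in every GFP-AL library than in any GFP-Veh or LH3-AL library. Not every marker rose: 7 of 18 tested microglia markers were called higher in GFP-AL, and 3 of 14 border-associated macrophage markers lower. The neutrophil sum is uneven in GFP-AL, and the red cell sum stays above GFP-Veh in LH3-AL.

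The authors' deposited tables of differential genes list 9 of the 10 genes, all but Ms4a7, in each of 2 contrasts. In the authors' deposited table for GFP-AL against GFP-Veh the log2 fold changes ran from 1.11 (Lyz2) to 3.55 (Fcgr4), and Plac8 was listed at 1.97 with a q-value of 0.00768. The authors' deposited table named LH3-AL against GFP-Veh gives the same 9 genes from -1.03 (Cd68) to -2.44 (Fcgr4). Its log2 fold changes have the sign of the LH3-AL to GFP-AL ratio of mean FPKM for 1746 of 1746 genes (median absolute difference 0.0161), and that of LH3-AL to GFP-Veh for 1027 (1.45), so by its values the authors' deposited table holds LH3-AL against GFP-AL.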

How the data were processed

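RNA libraries of isolated cerebral vessels were sequenced on standard Illumina protocols, per the labels. STAR 2.5.1b and the build mm8 appear in the submitters' processing notes; no source used here states the counting step or the strandedness. The authors deposited FPKM values for 22557 genes, per the file headers; 5.99% lie below 0, from a step not given here, so the unit was recorded as other, and these values were set to 0. Rows sharing a symbol were summed (31 symbols). The authors also deposited log2 fold changes with p-values and q-values for 2 contrasts.

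Groups came from the library titles. The test was limma 3.58.1 (R 4.3.3) on log2(FPKM + 1), a group-means model of all 15 libraries and empirical Bayes with an intensity trend, for the 13082 genes whose mean reached 1 FPKM, Benjamini-Hochberg adjusted, called below 0.05. It was also run on simulated data, with independent normal noise for each gene and shifts added to GFP-AL alone. That simulation lacks the shared variation of these libraries, and its outcome is not reported here. Reads were estimated from FPKM and exon length, with 43.0% to 65.3% of low values whole within 0.1 read, too few for a count test; they gave the depth (13.6 to 31.6 M fragments), which limits the precision of low genes. Positions are those of GENCODE M21 (GRCm38) and promoters those of RefSeq GRCm38.p6; none was converted between builds. Ratios were compared by exact permutation over libraries.

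The members and gene lists were chosen with earlier results of these data known. Named genes were all members, close relatives, the 8 genes of most similar profile and Plod3. Of each list, up to 4 called genes with the smallest adjusted p were named. The rule also took markers treated as defining each cell type where they were near 0. P2ry12, Cx3cr1, Tmem119, Sall1, Klf4, Hexa, Rasgrp2, Camp, Ltf, Ngp, S100a8 and S100a9 fall outside this rule and were chosen after their values were seen. A few genes selected by the rule are not reported here. Alternatives covered the pseudocount, minimum level, scaling, libraries in the fit, trend, depth, replicate block, libraries left out, and separate Itgam rows (added after seeing the data). Marker lists read and not described above, for endothelial, pericyte and smooth muscle, perivascular fibroblast, astrocyte, oligodendrocyte and neuronal cells, were higher at 8, 0, 0, 1, 1 and 0 genes and lower at 5, 3, 1, 3, 6 and 0 genes in GFP-AL against GFP-Veh.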

Additional observations from a re-analysis of the deposited data

Results flagged for a closer look

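In 6 of the 30 sets of 5 libraries (10 genes in 3 groups), 1 library lay far from the others, with a gap to its neighbour of more than 0.71 of the group's range. Chance gives about 1 in 20 for independent normal values. The 30 sets reuse the same libraries and the genes vary together, so this rate cannot judge the count. GFP-AL replicate 2 was such a far library for Lyz2 (317.6 FPKM), Fcgr4 (24.85 FPKM) and Plac8 (13.05 FPKM). GFP-Veh replicate 2 was one for Tyrobp (67.14 FPKM) and Ms4a7 (1.698 FPKM). LH3-AL replicate 5 was one for Fcgr4 (5.651 FPKM); without it the Fcgr4 difference from GFP-AL was -2.32 on the log2(FPKM + 1) scale.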

How the results depend on the processing

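Of 26 alternatives, a minimum mean of 5 FPKM left Fcgr4 and Plac8 untested, and 7 members were then called higher in GFP-AL and 7 lower in LH3-AL. In the others, the 15 that each leave out 1 library included, these counts were 8 and 8. Every member tested under an alternative kept its side of the threshold in all 3 comparisons, and its direction where called. Counts over all genes moved more. In GFP-AL against GFP-Veh 3737 genes were called, but 2174 with a minimum mean of 5 FPKM, which tests fewer genes, and 2376 with depth as a covariate; with 1 library left out they ran from 2840 to 4437. In LH3-AL against GFP-AL 3723 were called, 2109 at a minimum of 5 FPKM, and 2658 to 4291 with 1 library left out. In LH3-AL against GFP-Veh 68 were called, 176 with only those groups in the fit, 4 with depth as a covariate, 158 without the 3 libraries that stand apart, and 27 (without GFP-Veh replicate 4 or LH3-AL replicate 3) to 110 (without GFP-AL replicate 2) with 1 library left out; except for the smaller fits, the cause was not tested. With median-of-ratios scaling the split of calls became 1843 higher and 1702 lower in GFP-AL (1416 and 2321 without it) and 1765 higher and 1895 lower in LH3-AL against GFP-AL (2227 and 1496). Replicate numbers did not pair the libraries (correlations of same-numbered libraries -0.261 to 0.286); with the replicate number as a block, 31 genes were called in LH3-AL against GFP-Veh. FPKM near 1, as for Fcgr4, Plac8 and Ms4a7 in GFP-Veh, rests on few fragments.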
